A study of Mus musculus with 4 samples.

Results

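The cytosolic ribosome reads mRNA with a small and a large subunit, each built from ribosomal RNA and many proteins, which Rps genes encode for the small and Rpl genes for the large subunit. The mRNAs of these proteins usually begin with a short run of pyrimidines, called a 5′ terminal oligopyrimidine (TOP) tract, through which growth signals control their translation together. In the intestinal crypt, Lgr5+ stem cells give rise to dividing progenitors, which become absorptive enterocytes or secretory cells (goblet, Paneth, enteroendocrine and tuft cells). The genes described here were chosen by name and by level: symbols beginning with Rpl or Rps and a digit, with Rplp0, Rplp1, Rplp2 and Rpsa, without pseudogene symbols and Rps6k kinases, and with at least 500 UMIs (unique molecular identifiers, each standing for 1 captured RNA molecule) over both count matrices. Of 32285 genes in the feature list, 86 matched by name and 83 passed the limit, 49 with Rpl and 34 with Rps symbols. The 83 genes held 10622742 UMIs, which was 18.2% of all gene UMIs.

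The UMI limit separated the genes clearly. The members with the fewest UMIs were Rps27rt, a single-exon copy of Rps27, with 1350, and Rps19bp1 with 3094. Outside the limit were Rpl3l with 1 UMI, and Rpl39l and Rpl10l with 0. Rps19bp1 encodes a protein that binds Rps19 and is no ribosomal subunit, and it was caught by its symbol. Among the members with the most UMIs were Rps29, Rpl41, Rpl13, Rps12, Rps24, Rplp1, Rps20, Rpl23 and Rpl27a, with 244204 for Rps29 and 178834 for Rpl27a. Since the level chose the members, their abundance is a description only.

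The cells came from the distal small intestine of 8 mice with the alleles Lgr5-EGFP-IRES-CreERT2 and Rosa26-mTmG. After 4-OH-tamoxifen, Cre made in Lgr5-expressing cells switches the Rosa26 reporter from membrane Tomato to membrane GFP, so that the descendants of a labelled stem cell can be sorted. Mice 1 to 4 were traced for 48 h and mice 5 to 8 for 72 h. From each mouse, GFPhigh cells (clones) and GFP-negative cells (control) were sorted, so every control cell comes from an animal given the same drug and alleles. The Lgr5 allele carries EGFP too, so GFP from that allele and from the reporter enter the same gates. Hashtag antibodies marked the mice, and cells were run in 2 pools, with the clones of a mouse in one and its control cells in the other. Ages are not given in the sources used here.

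Of 4029 barcodes with a single hashtag, 1993 cells passed the filters. Clones gave 110 cells at 48 h, 83 of them from mouse 3 and 4 to 15 from each other mouse, and 631 at 72 h. Control gave 586 and 666 cells. A sum over the cells of 1 mouse and gate held 77566 to 6370450 UMIs. Mouse 3 was the outlier in depth: its clone cells had a median of 1841 UMIs, against 5662 to 27435 in the other 15 mouse and gate groups, and the assigned hashtag made up a median of 48.6% of their hashtag counts. The 2 pools shared 1 barcode sequence. The stem class (248 cells) led with Lgr5 and Olfm4, and its 15 tested stem markers summed to a mean of 12107 CPM (counts scaled to a fixed library size) in control, against 4406 CPM in dividing, 1615 CPM in secretory and 390 CPM in absorptive cells. Goblet markers summed to 670 CPM in stem and 109028 CPM in secretory cells. Of the immune marker list 1 of 10 genes passed the count filter, and of the endothelial, stromal and erythroid lists 0 did.

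The start of the mRNA is where the TOP tract lies, so the start windows of 10 members are shown: 3 typical subunits, and the paralog groups on which the results below turn. Each window runs 5′ to 3′ on the gene's strand from 10 bases before to 20 bases from the RefSeq start (GRCm38.p6). Capitals mark the longest run of C or T in the window (in Rps27rt the first of equal runs).
Rps6, chr4:86857348-86857377, minus strand: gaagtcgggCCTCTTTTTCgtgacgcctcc
Rpl38, chr11:114668570-114668599, plus strand: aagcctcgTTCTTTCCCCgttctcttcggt
Rpl12, chr2:32961702-32961731, plus strand: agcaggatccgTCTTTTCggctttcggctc
Rps27, chr3:90213629-90213658, minus strand: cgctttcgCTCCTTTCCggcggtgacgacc
Rps27rt, chr9:114982720-114982749, minus strand: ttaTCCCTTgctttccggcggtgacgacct
Rps27l, chr9:66946076-66946105, plus strand: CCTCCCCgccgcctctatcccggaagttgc
Rpl36a, chrX:134585644-134585673, plus strand: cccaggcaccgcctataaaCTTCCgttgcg
Rpl36al, chr12:69184048-69184077, minus strand: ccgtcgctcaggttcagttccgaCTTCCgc
Rpl22, chr4:152325716-152325745, plus strand: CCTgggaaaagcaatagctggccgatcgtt
Rpl22l1, chr3:28805498-28805527, plus strand: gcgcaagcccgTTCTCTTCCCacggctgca

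In Rps6, Rpl38 and Rps27 the run covers the annotated start, with 10, 10 and 9 bases. In the other 7 genes shown the marked run does not, with 7 bases in Rpl12 and Rps27l, 6 in Rps27rt, 5 in Rpl36a and Rpl36al, 3 in Rpl22 and 10 in Rpl22l1. Rps27rt has a further, unmarked run of 6 bases that begins at its annotated start. Rps27l and Rpl22 each have 2 RefSeq windows, of which the one nearer to the gene's start in GENCODE is shown. RefSeq starts are not exact, and a window without a run says nothing about the mRNA in these cells. Over the RefSeq table, windows were found for 63 of the 83 members (74 windows). A run of at least 8 pyrimidines on the gene's strand stood within 10 bases before to 20 after the start in 32.4% of member windows and in 11.2% of all 32851 windows. The letters CTTTCC stood on either strand of the 300-base windows in 51.4% of member windows and 26.6% of all. CTCTTT, which overlaps CTTTCC in starts such as CTCTTTCC, stood in 44.6% and 23.0%, CCGGAA in 48.6% and 14.9%, CACGTG in 10.8% and 7.15%, and TATAAA in 9.46% and 13.6%.

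Ribosomal protein genes took a larger part of the RNA of stem cells than of the other 3 named classes. In control, the 83 genes made up 27.4%, 27.9%, 30.04%, 28.7% and 27.1% of the UMIs of stem cells in mice 3 to 7 (mean 28.2% ± 1.18, SD, n = 5 mice with at least 10 such cells). Dividing cells held 20.7% ± 2.29 (SD, n = 8), with 18.4% as the lowest and 24.6% as the highest mouse. Secretory cells held 17.8% ± 2.13 (SD, n = 8; 15.2% to 21.7%). Absorptive cells held 16.8%, 14.8%, 20.7%, 20.6% and 13.4% in mice 3, 4, 5, 6 and 8 (17.2% ± 3.34, SD, n = 5). The stem values did not overlap those of any other class, while the dividing, secretory and absorptive values overlapped one another. Mice 1, 2 and 8 had too few control stem cells for a sum, so they enter only the ranges of other classes. Over all control cells these mice had the lowest shares. These shares are given as a description, and the genes behind them are tested below.

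**Figure D1:**
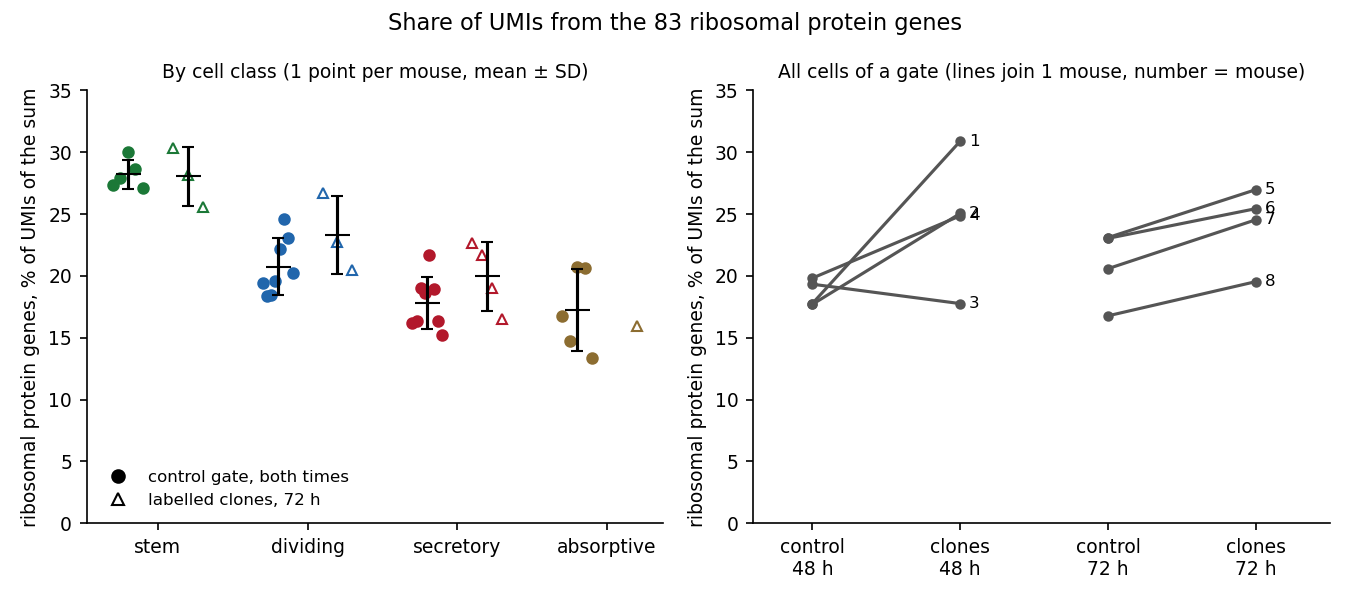
Left, percent of the UMIs of a sum of cells that came from the 83 ribosomal protein genes, by cell class, with 1 point per mouse (circles, control gate at both times; triangles, clones at 72 h) and bars for the mean ± SD. Right, the same percent over all cells of a gate, with lines that join the control and clone cells of 1 mouse; the clone value is the higher one in 3 of 4 mice at 48 h and 4 of 4 at 72 h.

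Within the secretory class the 2 goblet clusters differed. Goblet genes such as Tff3 and Fcgbp led both. The cluster with Dll1, Spdef and Creb3l1, genes of secretory progenitors and goblet differentiation, among its 10 largest folds held 21.2% ± 2.55 (SD, n = 8 control mice). The cluster with Muc2, Zg16 and Clca1, products of mature goblet cells, among its 10 largest folds held 13.6% ± 2.37 (SD, n = 7). The 10 most abundant other genes took 10.7% and 20.8% of the UMIs in these clusters. Enteroendocrine cells of mouse 3 held 15.5%, and tuft and Paneth cells of mouse 8 held 14.7% and 13.1%, with 10 to 12 cells in each. Over all 47 control Paneth cells pooled the share was 17.6% (median per cell 19.7%), and over 16 Paneth cells of clones 20.6%. Of the 2 clusters left unnamed by the marker lists, the one led by Olfm4 and Ifitm3 held 27.3% ± 1.03 (SD, n = 5), with 26.2% to 28.8% over mice, which overlapped the range of the stem class. The clusters were made without ribosomal protein genes, but the share of UMIs in a cluster depends on the other genes of the same cells, so no test is given.

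The share moved with the mitochondrial share of a cell. Mitochondrially encoded UMIs made up 9.39% of dividing, 7.56% of stem, 7.59% of absorptive and 5.34% of secretory sums on average in control. Over control cells pooled across mice, stem cells with under 5%, 5 to 10% and 10 to 20% mitochondrial UMIs held 31.6%, 30.1% and 17.3% ribosomal protein UMIs. Dividing cells held 26.3%, 24.4% and 14.1% in the same bins. Secretory cells held 18.4%, 18.4% and 8.56%, and absorptive cells 20.0%, 18.2% and 10.1%. Stem cells were the highest class in each bin and dividing cells the next, but 57.8% of dividing cells and 29.0% of stem cells lay in the uppermost bin. The cells in that bin also had fewer UMIs, with a median of 13611 in dividing and 7988 in stem cells against 28860 and 18645 in the middle bin.

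**Figure D2:**
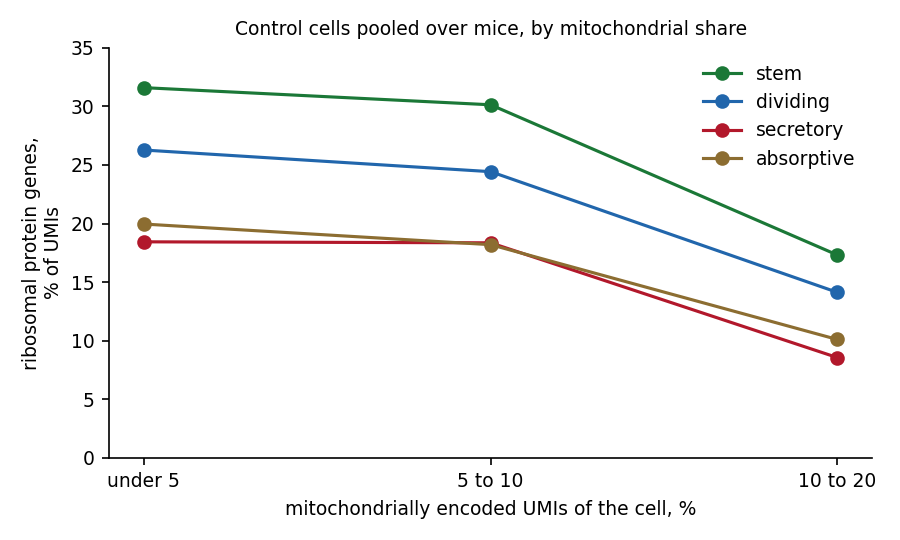
Percent of UMIs from ribosomal protein genes (vertical axis) in control cells pooled over mice, by the cell's percent of mitochondrially encoded UMIs (horizontal axis, 3 bins), with 1 line per cell class. Each class is lowest in the bin of 10 to 20%, where stem cells hold 17.3% and secretory cells 8.56%.

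Counts were then summed per mouse and class and tested gene by gene in edgeR with the mouse as a block, over 8629 genes. All 83 members passed the count filter. The values are relative to the other genes of the same sums, so a lower value of these genes and a higher value of many others cannot be told apart. In dividing against stem cells 74 members fell and 1 rose, while of all genes tested 31.3% were called (14.8% lower, 16.5% higher). Secretory against stem cells gave 68 members lower and 3 higher, with 43.6% of all genes called (20.3% lower, 23.3% higher). In absorptive against stem cells 71 fell and 2 rose, with 50.3% called (25.3% lower, 25.0% higher). The members' median log2 fold change was -0.42, -0.40 and -0.52, against 0.00, 0.00 and -0.07 for all genes. Members of the large and small subunit moved alike: leaving out paralogs and Rps19bp1, the medians were -0.42 and -0.45 for dividing, -0.40 and -0.44 for secretory and -0.51 and -0.56 for absorptive cells, over 46 large and 31 small subunit genes.

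The call for dividing cells differed under a lower mitochondrial limit, for which the cells were clustered and named anew. A cluster of 27 cells with Tff3, Txndc5 and Agr2 among its leading genes then counted as dividing. Under the 20% limit a similar cluster of 50 cells was named dividing secretory and kept out of the class. The part of this in the change was not tested. With cells of under 10% in place of 20% mitochondrial UMIs, 9 members were called lower in dividing against stem cells (median -0.23; 6.73% of all genes lower), among them Rps28 (-0.45), Rps27 (-0.42), Rps14 (-0.41), Rpl12 (-0.39), Rpl26 (-0.38) and Rpl17 (-0.38). In the same cells 64 members were called lower in secretory (median -0.45) and 65 in absorptive against stem cells (median -0.63). The median of all genes under this limit was 0.03, 0.03 and -0.015 in dividing, secretory and absorptive cells. The shares of all genes called that are given above for secretory and absorptive cells belong to the 20% limit. No share under the 10% limit is given beside the secretory and absorptive counts, so these counts are not read as particular to the members. With library totals in place of TMM scaling, the median of all genes shifted to -0.18 in secretory and -0.26 in absorptive cells, and the members' medians were -0.60 and -0.70.

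**Figure D3:**
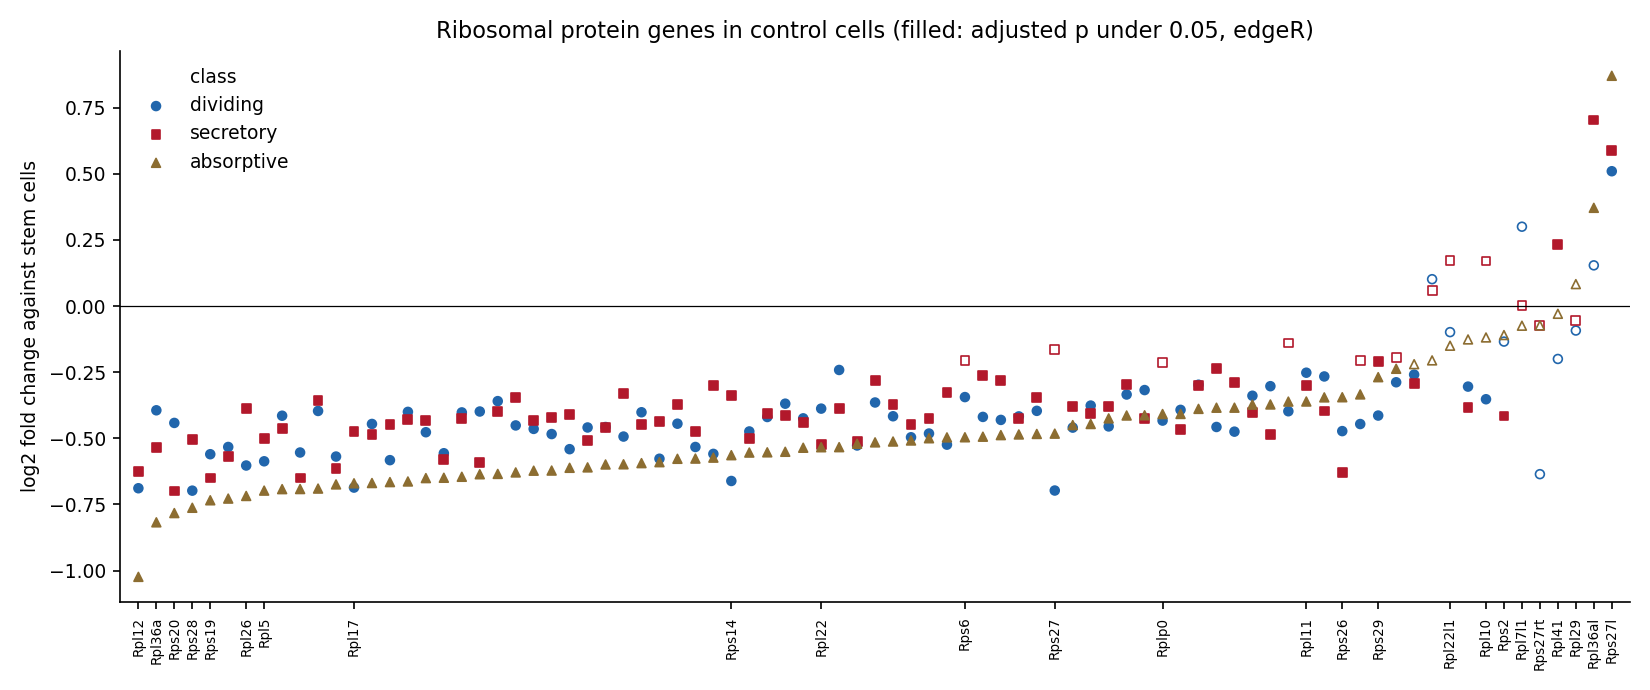
Log2 fold change of each of the 83 genes against stem cells in control (vertical axis), for dividing (circles), secretory (squares) and absorptive cells (triangles), with genes in the order of the absorptive values and names under some of those in the text. Filled symbols have an adjusted p under 0.05 in edgeR; nearly all lie below 0, with Rps27l and Rpl36al at the upper end.

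In all, 65 members were lower than in stem cells in each of the 3 classes, among them Rps3, Rps14, Rps19, Rps24, Rps27a, Rps29, Rpsa, Rpl3, Rpl5, Rpl10a, Rpl11 and Rpl39. Another 6 were lower in dividing and absorptive cells without passing the test in secretory cells: Rpl9, Rpl19, Rpl38, Rplp0, Rps6 and Rps27. Rplp0 belongs with Rplp1 and Rplp2 to the stalk of the large subunit, and its log2 fold changes were -0.43, -0.21 and -0.41 in dividing, secretory and absorptive cells, against -0.43, -0.28 and -0.49 for Rplp1. Rps6, whose protein is phosphorylated downstream of mTOR, had -0.34, -0.20 and -0.50. Rpl5 and Rpl11, which bind free 5S rRNA and inhibit Mdm2 outside the ribosome, both fell in each class, with log2 fold changes of -0.59, -0.50 and -0.70 for Rpl5 and -0.25, -0.30 and -0.36 for Rpl11.

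The steepest fall was that of Rpl12 in absorptive cells; its protein belongs to the stalk base of the large subunit. Rpl12 stood at 4049, 3817, 3985, 3763 and 3962 CPM in the stem cells of mice 3 to 7 (control, CPM after TMM scaling). Absorptive cells had 1769, 1644, 2396, 2017 and 1432 CPM in mice 3, 4, 5, 6 and 8, so that no absorptive value reached the lowest stem value. The log2 fold change was -1.02 (SE 0.10, edgeR adjusted p = 1.36e-10), lower in 4 of 4 mice with both classes. In dividing cells Rpl12 ran from 1866 to 2812 CPM (8 mice) with a log2 fold change of -0.69, and in secretory cells from 1828 to 2842 CPM with -0.63.

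Rpl12 was among the 5 largest falls in each of the 3 classes, Rps20 and Rps19 in secretory and absorptive cells, and Rps28 in dividing and absorptive cells; differences between the classes' lists were not tested. In dividing cells the 5 were Rps28 (-0.70), Rps27 (-0.70), Rpl12 (-0.69), Rpl17 (-0.69) and Rps14 (-0.66). Secretory cells had among others Rps20 (-0.70), Rps19 (-0.65), Rps26 (-0.63) and Rpl12 (-0.63), and absorptive cells Rpl12, Rpl36a (-0.82), Rps20 (-0.78), Rps28 (-0.76) and Rps19 (-0.73). Rps20 was at 5263 to 6460 CPM in stem cells and at 2548 to 4179 CPM in secretory cells, with no overlap between 5 and 8 mice (edgeR adjusted p = 4.96e-08). Rps19, a small subunit protein whose gene is mutated in Diamond-Blackfan anaemia, was at 4103 to 4746 CPM in stem and 1922 to 3301 CPM in secretory cells.

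The paralog groups are given beside their parent genes, and differences between a paralog's and its parent's change were not tested. Rps27l, a paralog of Rps27 known as a p53 target (chr9:66946086-66949516, plus strand), was the 1 member that rose in each of the 3 classes. Its levels were 354, 292, 329, 245 and 429 CPM in the stem cells of mice 3 to 7. Absorptive cells had 591, 561, 707, 508 and 583 CPM in mice 3, 4, 5, 6 and 8, all above the highest stem value. Dividing cells had 381 to 565 CPM and secretory cells 371 to 615 CPM, and their lowest mice overlapped the highest stem mouse. The log2 fold changes were 0.51 (SE 0.12, adjusted p = 0.00104) in dividing, 0.59 (SE 0.12, adjusted p = 0.000101) in secretory and 0.87 (SE 0.13, adjusted p = 6.11e-07) in absorptive cells (edgeR), higher in 5 of 5, 5 of 5 and 4 of 4 mice.

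Rps27 itself (chr3:90212522-90213651, minus strand) went the other way. It stood at 2599, 3027, 3645, 3541 and 2668 CPM in stem cells and at 1336 to 2785 CPM in dividing cells, so that the highest dividing mouse passed the 2 lowest stem mice. Its log2 fold change was -0.70 (SE 0.10, adjusted p = 5.21e-07) in dividing, -0.48 (adjusted p = 0.000267) in absorptive and -0.17 (adjusted p = 0.176) in secretory cells, in edgeR. Rps27l made up 9.88% ± 2.99 (SD, n = 5) of the UMIs of the pair in stem cells, 21.5% ± 4.17 (n = 8) in dividing, 16.7% ± 3.57 (n = 8) in secretory and 21.9% ± 4.59 (n = 5) in absorptive cells. How well each gene's reads are counted sets the level of such a share, so only its difference between classes is read. Rps27rt, nearly the same in sequence as Rps27, held 0.973% to 1.20% of its pair with Rps27 on average and did not pass the test in any class. Its log2 fold change in dividing cells was -0.64 (edgeR adjusted p = 0.0793), near that of Rps27. Reads cannot be assigned to it with certainty.

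Rpl36al (chr12:69182731-69184083, minus strand; 1 exon) is an autosomal paralog of the X-linked Rpl36a (chrX:134585654-134588062, plus strand; 5 exons), a protein of the tRNA exit site. Stem cells had 752, 707, 706, 689 and 675 CPM of Rpl36al in mice 3 to 7, and secretory cells 977 to 1402 CPM over 8 mice, without overlap. The log2 fold change was 0.70 (SE 0.10, edgeR adjusted p = 2.08e-07), higher in 5 of 5 mice. In absorptive cells it was 0.37 (adjusted p = 0.00398, edgeR), and in dividing cells 0.15 (adjusted p = 0.252). The rise in absorptive cells was lost with the 10% mitochondrial limit (0.29) and with library totals (0.18). Rpl36a fell in all 3 classes, with -0.39, -0.53 and -0.82 in dividing, secretory and absorptive cells, from 1746 to 2451 CPM in stem to 1128 to 1607 CPM in secretory cells. Rpl36al thus made up 26.2% ± 2.87 (SD, n = 5) of the pair in stem, 36.4% ± 4.06 (n = 8) in dividing, 47.9% ± 5.16 (n = 8) in secretory and 45.8% ± 8.12 (n = 5) in absorptive cells, with no stem value above 30.1% and no secretory value below 39.9%.

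**Figure D4:**
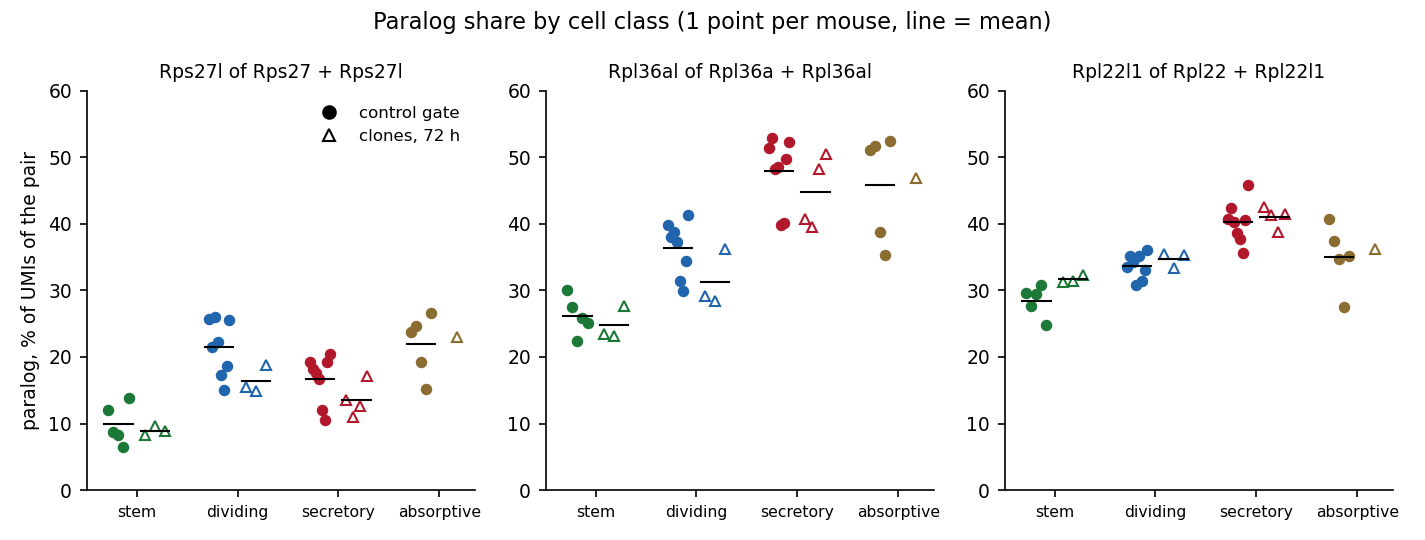
Percent of the UMIs of a gene pair that came from the paralog (vertical axis) in each cell class, for Rps27l, Rpl36al and Rpl22l1, with 1 point per mouse (circles, control; triangles, clones at 72 h) and lines at the mean. Stem cells have the lowest mean of the 4 classes for each pair in control.

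Rpl22, an RNA-binding protein of the large subunit, fell in all 3 classes, with log2 fold changes of -0.39, -0.52 and -0.53 in dividing, secretory and absorptive cells. It had 1954 to 2196 CPM in stem cells and 1115 to 1650 CPM in secretory cells, without overlap. Its paralog Rpl22l1 had 718 to 979 CPM in stem and 800 to 1031 CPM in secretory cells, which overlapped, with log2 fold changes of -0.10, 0.17 and -0.15 that did not pass the test (adjusted p 0.192 to 0.527, edgeR). Rpl22l1 made up 28.5% ± 2.37 (SD, n = 5) of the pair in stem and 40.2% ± 3.07 (n = 8) in secretory cells, again without overlap. Rpl7l1, a paralog of Rpl7, had 45.2 to 82.4 CPM in stem and 54.9 to 92.4 CPM in dividing cells (log2 fold change 0.30, edgeR adjusted p = 0.183), while Rpl7 fell by 0.45 on the log2 scale. Rps19bp1 passed no test either, with log2 fold changes of 0.10, 0.06 and -0.21.

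Single subunit genes varied from class to class. Rpl41, the shortest ribosomal protein, rose in secretory cells by a log2 fold change of 0.23 (SE 0.09, edgeR adjusted p = 0.0295; higher in 5 of 5 mice), from 4146 to 5816 CPM in stem to 4806 to 6291 CPM in secretory cells. Its value was -0.20 in dividing and -0.03 in absorptive cells, where it did not pass the test. Rps2, at the mRNA entry of the small subunit, passed the test in secretory cells (-0.42, edgeR adjusted p = 0.000377), with -0.13 in dividing and -0.11 in absorptive cells, uncalled. Rpl10, a protein of the large subunit that is added late in assembly, was lower in dividing cells (-0.35, edgeR adjusted p = 0.003), with 0.17 in secretory and -0.12 in absorptive cells, uncalled. Rpl29 passed in none of the 3, with log2 fold changes of -0.09, -0.05 and 0.08. Rpl8 was lower in dividing (-0.26) and secretory cells (-0.29) and did not pass in absorptive cells (-0.22).

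Secretory and absorptive cells were also compared with each other. Of the 83 genes 25 were higher in secretory cells and 4 lower, while 54.6% of all genes tested were called (30% higher, 24.5% lower). The members' share called higher (30.1%) was near that background. The members' median was 0.14 and that of all genes 0.12. Rpl12 (0.40), Rpl23 (0.33), Rpl36al (0.33), Rpl26 (0.33) and Rpl22l1 (0.32) were among the higher ones. Among the lower ones were Rps2 (-0.31), Rps26 (-0.29) and Rps27l (-0.28). The count of higher members was 2 without the mouse block, 3 with a 10% mitochondrial limit, and 13, 10, 6 and 8 without mouse 2, 3, 4 or 8. These alternative counts have no share of all genes beside them, so they are not read as particular to the members.

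The clones at 72 h gave a further set of stem, dividing and secretory cells, from other cells of mice 5 to 8. Stem cells held 30.4%, 28.2% and 25.6% ribosomal protein UMIs in mice 5, 7 and 8, dividing cells 26.7%, 22.7% and 20.5%, and secretory cells 22.6%, 21.7%, 19.01% and 16.5% in mice 5 to 8. The order within each mouse with all 3 classes was the one seen in control, though mouse 8 was low and mouse 5 high in every class. In dividing against stem cells 70 members fell and 2 rose (20.7% of 8077 genes called, 10.4% lower and 10.3% higher; member median -0.37). In secretory against stem cells 73 fell and 3 rose (40.9% called, 19.4% lower and 21.5% higher; median -0.42). The calls rest on the mouse block: without it 2 and 13 members were called lower (5.65% and 16.9% of all genes). DESeq2 called 23 lower in dividing cells, and edgeR 41 without mouse 7. No share of all genes is given beside these 2 counts, so they are not read as particular to the members.

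All 70 members lower in dividing clone cells were also lower in dividing control cells, which is 94.6% of the 74 called there. For secretory cells 68 were lower in both gates, 100% of those of control and 93.2% of those of clones. With most of the 83 members lower in each gate, a large overlap follows from the counts alone. No overlap over all genes is given, so these percentages are not read as particular to the members. No member had opposite signs in the 2 gates in either comparison. Across the 83 genes, which are not independent replicates and share animals and pools, Pearson's r of the 2 gates' log2 fold changes was 0.93 for dividing and 0.95 for secretory cells. Rps27l rose in clones too, by 0.38 (SE 0.12, edgeR adjusted p = 0.0217) in dividing and 0.57 (adjusted p = 0.000645) in secretory cells. The rise in dividing clone cells was lost without mouse 5 (0.35), without mouse 8 (0.31) and with the 10% mitochondrial limit (0.18). Rpl36al rose by 0.75 (adjusted p = 2.37e-06, edgeR) and Rpl41 by 0.21 (adjusted p = 0.0301) in secretory cells. Rpl7l1 rose in dividing clone cells by 0.48 (SE 0.17, edgeR adjusted p = 0.0433), with 55.4, 48.4 and 65.2 CPM in stem and 81.7, 72.7 and 79.0 CPM in dividing cells of mice 5, 7 and 8. That call was lost without mouse 5 (0.43), 7 (0.46) or 8 (0.57).

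**Figure D5:**
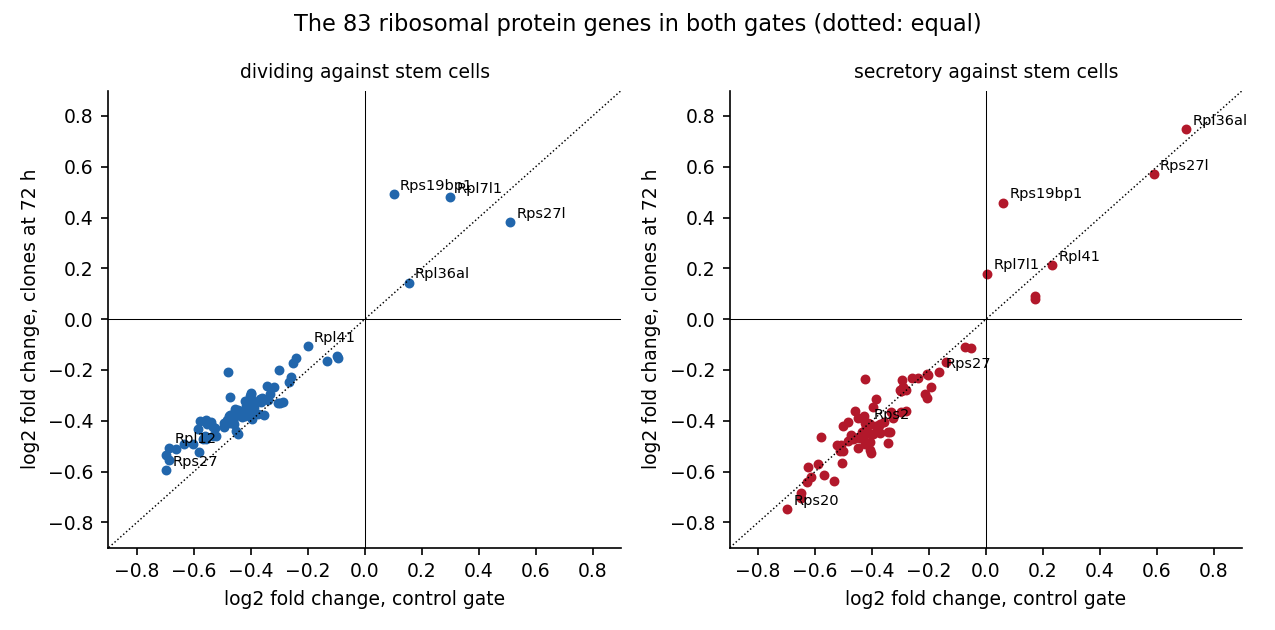
Log2 fold change of each of the 83 genes against stem cells in control (horizontal axis) and in clones at 72 h (vertical axis), for dividing (left) and secretory cells (right), with a dotted line where both are equal. The points follow the line, with Rps27l and Rpl36al at the upper right.

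Over all cells of a gate, clones held a larger ribosomal protein share than the control cells of the same mouse in 7 of 8 mice. At 48 h the clones of mice 1 to 4 held 30.9%, 25.1%, 17.8% and 24.9%, and their control cells 17.8%, 17.7%, 19.3% and 19.8%. Mouse 3, with the shallow clone cells, was the exception. At 72 h the clones of mice 5 to 8 held 27.0%, 25.4%, 24.5% and 19.5%, and their control cells 23.1%, 23.0%, 20.6% and 16.8%. The difference within a mouse was 5.99 percentage points ± 6.08 (SD, n = 4) at 48 h and 3.25 ± 0.783 (SD, n = 4) at 72 h. Within pool 1 at 72 h, where clones and control come from different mice, clones did not lead (means 22.0% and 23.1%, 2 mice each), while within pool 2 they did (26.2% and 18.7%). At 48 h clones were higher within both pools (21.3% and 17.7%, and 28.0% and 19.6%). The stem class held 75%, 26.7%, 3.61% and 37.5% of the clone cells of mice 1 to 4 and 31.2%, 20%, 36.9% and 9.51% of those of mice 5 to 8. It held 4.14%, 1.35%, 5.96% and 13.4% of the control cells of mice 1 to 4 and 13.0%, 12.5%, 14.3% and 2.17% of those of mice 5 to 8, so that mouse 3 was again the 1 mouse with the lower value in clones. The part of this in the difference was not tested.

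No member passed the edgeR test in these contrasts, over 10606 genes with pool as a covariate. For clones against control at 48 h the members' median log2 fold change was 0.32, with 78 of 83 above 0 and 34 at an unadjusted p under 0.05. Of all 10606 genes, 1271 had an unadjusted p under 0.05 and 0% were called, and their median was -0.07. At 72 h the members' median was 0.16, with 81 of 83 above 0 and 0 at an unadjusted p under 0.05. Of all genes, 842 had an unadjusted p under 0.05 and 0% were called at 72 h, with a median of 0.01. DESeq2 called 0 members in both as well. With the mouse as a block, 0 members were called at 48 h (0.896% of all genes, 0.764% lower and 0.132% higher) and 0 at 72 h (1.87%, with 1.12% lower and 0.745% higher). Without mouse 3 and with the block, 31 members were higher in clones at 48 h (median 0.45), with 2.07% of all genes called and 0.773% higher. The 5 paralogs and Rps19bp1 had a median of -0.18 at 48 h.

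Rps19 was among the members with the highest values at 48 h. Its clone cells had 4674, 3715, 2136 and 3421 CPM in mice 1 to 4 and the control cells 2184, 2221, 2608 and 3021 CPM, so that the clones of mouse 3 lay below all control values and the others above them. The log2 fold change was 0.46 (SE 0.19, edgeR adjusted p = 0.356). At 72 h clones had 4378, 4298, 3612 and 2689 CPM of Rps19 in mice 5 to 8 and control cells 3334, 3325, 3224 and 2378 CPM, higher in clones in 4 of 4 mice (log2 fold change 0.25, edgeR adjusted p = 0.721). Rps27l had the opposite sign, with 411, 406, 453 and 514 CPM in clones at 72 h and 486, 417, 533 and 571 CPM in control cells, lower in clones in 4 of 4 mice (log2 fold change -0.17, edgeR adjusted p = 0.756).

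Time gave no called member either. In clones the median for 72 h against 48 h was 0.11 (76 of 83 above 0, 1 at an unadjusted p under 0.05; 0% of genes called in edgeR), and it turned to -0.01 without mouse 3. Control cells had a median of 0.26 (79 of 83 above 0, 1 at an unadjusted p under 0.05; 0.0849% of genes called). The clone-control difference changed from 48 h to 72 h by a median of -0.15, with 73 members below 0, 0 at an unadjusted p under 0.05 and 0% of genes called; with the mouse as a block 0 members and 0.0943% of genes were called (0.00943% higher, 0.0849% lower). Of all 10606 genes, 664, 575 and 554 had an unadjusted p under 0.05 in these 3 comparisons in edgeR. DESeq2 called 0 members in them.

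Within a class, no member was called between clones and control at 72 h. The members' medians were -0.05 in stem, 0.04 in dividing and 0.08 in secretory cells, with 0 members called in each (0 at an unadjusted p under 0.05 in edgeR, and 0 called by DESeq2). Of all genes, 0% of 5798 were called in stem, 0.13% of 8486 (0.0471% higher, 0.0825% lower) in dividing and 0% of 7068 in secretory cells. An unadjusted p under 0.05 in edgeR was found for 254, 624 and 110 of these genes. With the mouse as a block, 21 members were higher in dividing clone cells (median 0.15; 3.46% of all genes called, 1.76% higher and 1.71% lower). Mouse 6 had no clone sum in that fit, so mice 5, 7 and 8 alone informed the gate. Few residual degrees of freedom remained, and these calls are given with that limit. Without mouse 5 and without the block the median was -0.27. Rps20 stood at 6661, 5782 and 5470 CPM in the clone stem cells of mice 5, 7 and 8 and at 6460, 5978 and 5263 CPM in the control stem cells of mice 5, 6 and 7, which overlapped. Absorptive cells could not be compared, as mouse 8 alone had 10 or more such clone cells, with a share of 15.9% against 13.4% in its control cells.

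Of the translation factors and other mRNAs known to carry a TOP tract, 17, 17 and 15 of 23 were lower and 0 higher in dividing, secretory and absorptive against stem cells in control (medians -0.48, -0.34 and -0.54). Of all genes tested, 14.8%, 20.3% and 25.3% were lower and 16.5%, 23.3% and 25.0% higher in these comparisons. With the 10% mitochondrial limit 7 of 23 were lower in dividing cells, beside 6.73% of all genes; running these lists under that limit was chosen after seeing the data. Eef1a1, the elongation factor that brings tRNA to the ribosome, fell in each class (-0.59, -0.37 and -0.67). Tpt1, a small protein first found in tumours, fell in dividing (-0.67) and absorptive cells (-0.35) and was at -0.15 in secretory cells, uncalled. Fau, which encodes a small subunit protein fused to a ubiquitin-like protein, fell in dividing (-0.42) and secretory cells (-0.28) and was at 0.08 in absorptive cells, uncalled.

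Ribosome biogenesis genes make and process ribosomal RNA. Of 53 tested genes 7 were higher and 3 lower in dividing cells (median 0.11), but 32 were lower and 1 higher in secretory cells (median -0.70) and 37 lower and 1 higher in absorptive cells (median -1.18). Over all genes 31.3%, 43.6% and 50.3% were called in either direction. With the 10% limit, to which these shares do not belong, 2 were higher and 0 lower in dividing, 1 and 21 in secretory, and 0 and 24 in absorptive cells. Of all genes under the 10% limit, 10.7%, 17.7% and 18.1% were higher and 6.73%, 13.3% and 14.4% lower, in the same order. Npm1, a nucleolar chaperone, fell in each class (-0.34, -1.19 and -1.93). Ncl, the nucleolar protein nucleolin, was at -0.22 in dividing cells, uncalled, and fell in secretory (-1.27) and absorptive cells (-2.04). Taf1d, a subunit of an RNA polymerase I factor, was at -0.12, uncalled, and fell in secretory (-1.09) and absorptive cells (-1.16). In clones at 72 h, 2 of 53 were higher and 0 lower in dividing cells, and 30 lower and 0 higher in secretory cells, where 20.7% and 40.9% of all genes were called.

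Regulators of ribosomal protein synthesis, a list with translation initiation and TOP-binding proteins, had 25 tested genes. Of these, 1 was higher and 1 lower in dividing, 8 and 4 in secretory, and 2 and 9 in absorptive cells. Of all genes, 31.3%, 43.6% and 50.3% were called in either direction, near the list's shares in secretory and absorptive cells only. By direction, the list had a smaller share higher and a larger share lower in absorptive cells than all genes (25.0% and 25.3%). Its most abundant genes were Pdcd4, an inhibitor of Eif4a, at -0.27, -0.16 and -1.12 (called in absorptive cells), Cnbp at 0.08, 0.27 and -0.45 (called in absorptive cells) and Eif4g1 at 0.14, 0.15 and -0.09 (uncalled). Mitochondrial ribosomal proteins, which belong to the separate ribosome of mitochondria, had 78 tested genes. Of these, 43 were higher and 0 lower in dividing, 46 and 0 in absorptive, and 13 and 9 in secretory cells (medians 0.51, 0.58 and 0.05), beside 16.5%, 25.0% and 23.3% of all genes called higher in these 3 comparisons. With the 10% limit, to which these shares do not belong, 24, 21 and 9 were higher and 0, 0 and 3 lower. The medians were then 0.51, 0.46 and 0.02, against 0.03, -0.015 and 0.03 for all genes. Mrpl52 was at 0.12, 0.55 and 0.09 in dividing, secretory and absorptive cells and was called in secretory cells, and Mrpl12 rose by 0.64 in dividing and 0.66 in absorptive cells. Of the 13 genes of the mitochondrial genome, 8 were higher in dividing, 6 higher in absorptive and 11 lower in secretory cells, where 16.5%, 25.0% and 20.3% of all genes were called in the same direction. With the 10% limit, which selects cells on these genes and to which those shares do not belong, the counts were 1, 8 and 1. The gene mt-Atp6 had 0.24, -0.37 and 0.16 in dividing, secretory and absorptive cells.

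The 2 pools differed in their mix of ribosomal protein UMIs. Relative to all member UMIs of a pool, Rps29 was 1.33 times, Rps28 1.28 times and Rpl38 1.25 times as high in pool 1 as in pool 2, and Rpl10 0.787 times. Across the 80 members other than Rps27rt, Rps19bp1 and Rpl7l1, Pearson's r of the log2 ratio with log2 mRNA length was -0.37, a description across genes. Class contrasts in control compare cells of the same mouse and so of the same pool.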

How the data were processed

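Distal small-intestinal epithelial cells of 8 mice were measured in 2 hashed pools. The deposited matrices hold UMI counts per gene and hashtag counts, not normalized by the authors; the deposited gene and barcode lists hold other values (names). Cell Ranger 6.1.2 and mm10 stand in the submitters' processing notes. How reads shared with pseudogenes were counted is not given in the sources used here. Members and gene lists were chosen with earlier results of these data known.

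Hashtags were assigned with HTODemux (Seurat 5.3.0, quantile 0.99): pool 1 gave 2257 singlets, 333 doublets (removed) and 752 negatives, pool 2 gave 1772, 160 and 178. Doublets within a mouse were not called. Per the labels, a cell's mouse follows from its hashtag and its gate from hashtag and pool. Cells had at least 1000 UMIs, 500 genes and under 20% mitochondrial UMIs. They were clustered in scanpy 1.11.5 without cytosolic and mitochondrial ribosomal protein genes and mitochondrially encoded genes (2000 variable genes, 30 components, 15 neighbours, Leiden 1.0) and named from marker lists: 3 markers among the 50 leading genes and 25% of markers raised. Paneth, goblet, enteroendocrine and tuft clusters formed the secretory class, and the enterocyte cluster the absorptive class.

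Counts were summed per mouse and gate, and per class where at least 10 cells, and tested with edgeR 4.0.16 in R 4.3.3, with TMM scaling, the filterByExpr filter, the quasi-likelihood test and Benjamini-Hochberg adjustment over all genes (two-sided); called means adjusted p under 0.05. The mouse was the replicate and its block part of the class fits; gate fits had pool as covariate. Both gates of a mouse come from 1 animal and are paired by the hashtag number; the correlation of their residuals over 2388 genes, which are not independent, was -0.03 to 0.19 at 48 h and 0.28 to 0.63 at 72 h. DESeq2 1.42.0, other scalings, filters, clusterings and each mouse left out were alternatives. Under each other mitochondrial limit the cells were clustered and named anew, so the classes there are not the same cells less some. The fits were checked on simulated data. Named genes were, per contrast, the 5 called members with the largest change each way, the 10 most abundant members, paralogs with their parents, a fixed list and the 3 most abundant genes of each pathway list. Some members that this rule names are not reported here. Positions are GENCODE M21 (GRCm38), where 83 of 83 members had the same name. Shares cover all genes in the denominator. Precision is limited by mice and cells: sums held 4 to 326 cells.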

Additional observations from a re-analysis of the deposited data

How the results depend on the processing

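The values below are counts of members called, medians of their log2 fold changes and shares of UMIs; where no cause is named, the cause was not tested. In dividing against stem cells of control, 9 members were called lower with a 10% mitochondrial limit, 49 with cells thinned to 1000 UMIs (634 genes tested) and 47 with at least 20 cells per sum; the last 2 tested fewer genes or fewer sums. Secretory against absorptive cells had 44 members higher with no filter on low counts, 2 with no replicate block, 3 with the 10% and 45 with the 50% mitochondrial limit, 5 with the top hashtag at 70% or more, 16 with thinned cells and 3 with at least 20 cells per sum. It had 6 to 35 with 1 mouse left out, 6 of them without mouse 4 and 35 without mouse 7. In 72 h clones, dividing against stem cells had 23 members lower in DESeq2, 2 with no replicate block and 30 with thinned cells, and 41 to 70 with 1 mouse left out (41 without mouse 7). Secretory against stem cells in these clones had 13 lower with no replicate block and 23 with the 50% limit. The counts in this paragraph have no share of all genes beside them, so they are not read as particular to the members.

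The replicate block, with the mouse as the pair, gave 21 members higher in clones within dividing cells at 72 h, and 31 at 48 h over all cells without mouse 3 (mouse 3 left out together with the block was chosen after seeing the data). It changed no other call of members in the gate fits. Within dividing cells it left few residual degrees of freedom, since mouse 6 had no clone sum there. It could not be fitted within stem cells, where no residual degrees of freedom remain with mouse and pool both in the fit. Also not fitted were the 10% limit within stem cells, and the 70% hashtag limit and the limit of 20 cells within stem and secretory cells.

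The medians that changed sign belonged to comparisons in which the fits with pool and without the mouse block called no member. Within dividing cells the fit with the mouse block did call members higher, as given above. For 72 h against 48 h in clones the median was -0.019 with library totals only, and ran from -0.015 without mouse 3 to 0.19 without mouse 8. For the change of the clone-control difference it was 0.062 with the 50% limit and 0.13 with thinned cells. Within stem cells it was 0.0002 with no filter, 0.18 with the 50% limit and 0.0067 at a Leiden resolution of 1.5, and ran from -0.27 without mouse 7 to 0.043 without mouse 8. Within dividing cells it was -0.04 with the 10% and -0.0069 with the 50% limit, and ran from -0.27 without mouse 5 to 0.15 without mouse 6.

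Shares moved with the mitochondrial limit and with the way of averaging. With 10% they were 30.7% in control stem, 24.9% in control dividing, 31.1% in 72 h clone stem and 20.5% in all control cells at 48 h. With 50% they were 23.6%, 17.8%, 25.6% and 17.1% in the same groups, 18.9% in 72 h clone dividing cells, and 18.5% and 20.7% in all clone cells at 48 h and 72 h. As means over cells they were 25.2%, 18.2%, 24.8% and 16.9% in the same groups as for 10%. Without mitochondrial UMIs in the total they were 30.5% in control stem cells and 20.1% in all control cells at 48 h.

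With library totals in place of TMM, 1714 genes were higher and 1015 lower in dividing, 1542 and 2361 in secretory, and 1760 and 2726 in absorptive against stem cells of control, and 1104 and 614 in dividing and 1408 and 2051 in secretory cells of 72 h clones. The members called lower then numbered 66, 75 and 76 in control. Leaving out 1 mouse gave 67 to 76 members lower in dividing, 61 to 71 in secretory and 65 to 72 in absorptive against stem cells of control. For the named members in the contrasts between classes, no called value changed sign under any alternative run. Of the values there, 4972 stayed on the same side of the threshold, called or not, 524 lost a call and 66 gained one. The contrasts of gates and times, and those of gates within a class, were not part of this check. Depth limits the 48 h clones most, with 4 to 83 cells per mouse.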
